A study of Mus musculus with 9 samples.

Results

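Th, Slc6a3, Ddc, Slc18a2, Dbh, Tph2, Slc6a4, Gata3, Chat and Slc5a7 are genes of the neurons that release dopamine, noradrenaline, serotonin or acetylcholine. They are 10 of the 19938 genes measured on GeneChip Mouse Gene 1.0 ST arrays of mouse brain, picked by name when their values on these arrays were already known, so their levels and differences are described here and carry no test. Each was read by a single probe set. The HPYD group (3 arrays) held APP/PS1 transgenic mice on a C57/6J background, which carry mutant amyloid precursor protein and presenilin transgenes, given the polypeptide HPYD in saline through the nose at 33 mg/mL and 5 μL per day for 30 days. The model group (3 arrays) held APP/PS1 mice given saline, and the control group (3 arrays) held wild type C57/6J animals that also received saline. After dosing, the study put all groups through a Morris water maze test and took the brains once it ended. Age at purchase was 8 months for the APP/PS1 animals, and the controls are described as of the same age. No source used here names the transgenic line, its promoter or the brain region taken. Nor does any say whether each array came from its own mouse, so the spread between arrays may in part be technical. By the sex-linked genes given below, the HPYD arrays did not all come from a single mouse. Values are log2 signals as deposited, and a difference of 1 on this scale is a doubling.

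The labels were checked before the results. Xist, transcribed from the inactive X chromosome of females, was 11.33, 11.47 and 5.22 in HPYD group 1, 2 and 3, between 11.18 and 11.78 in the model group and between 5.20 and 5.69 in the control group. Prnp was 12.54, 12.47 and 11.52 in the HPYD arrays, 12.42 to 12.55 in the model group and 11.76 to 11.81 in the control group. Kdm5d, a gene of the Y chromosome, was 5.03, 5.23 and 7.84 in the HPYD arrays, 4.51 to 4.97 in the model group and 7.62 to 7.77 in the control group. App was 12.98, 13.01 and 12.53 in the HPYD arrays, 12.95 to 13.02 in the model group and 12.56 to 12.62 in the control group. Cst7 was 10.04, 9.46 and 6.21 in the HPYD arrays, 8.14 to 9.75 in the model group and 5.50 to 6.40 in the control group. On all of these genes the array labelled HPYD group 3 resembled the control arrays and not the other APP/PS1 arrays. It thus goes against its label, and the differences of the HPYD group are given below with it and without it. Statements below on all HPYD arrays include it. By Xist and Kdm5d the model arrays and HPYD group 1 and 2 were female, and the control arrays and the array labelled HPYD group 3 male. In every comparison with the control group, genotype or treatment and sex thus cannot be told apart. HPYD against model compares arrays of the same sex only if HPYD group 3 is left out. The median of 9 neuronal markers lay within -0.09 and 0.04 of the control mean on every array, but single markers varied, with Syt1 at 12.40 in HPYD group 3, 12.37 in model group 2 and 12.87 to 12.98 elsewhere, and Nefh between 9.32 and 10.40. Markers of brain regions differed more: relative to the control mean, 9 cerebellar genes had a median of 2.99 in the array labelled HPYD group 3, of 0.56 in HPYD group 2 and of 2.98 in model group 2. For 6 genes of striatal projection neurons the median was -1.64 (HPYD group 2), -1.32 (HPYD group 3), -1.43 (model group 1) and -1.48 (model group 2), while the other 5 arrays stayed between -0.11 and 0.19. Skeletal muscle genes were raised by a median of 0.74 in HPYD group 2, of 2.11 in model group 1 and of 3.72 in model group 2, and 13 granulocyte genes by 2.71, 3.26 and 3.61 on the same arrays.

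Amine neurons lie in small nuclei and send long axons through the brain. Dopamine and noradrenaline are made from tyrosine by tyrosine hydroxylase, and serotonin from tryptophan by tryptophan hydroxylase; a shared decarboxylase completes dopamine and serotonin, and a shared vesicular transporter packs all 3 amines. The cell bodies, where most of the mRNA stays, sit in the midbrain for dopamine, in the raphe nuclei of the brainstem for serotonin and in the locus coeruleus of the pons for noradrenaline, whereas acetylcholine is made in the basal forebrain, by striatal interneurons and by brainstem and motor nuclei. In RNA from whole tissue, fewer such cells and less RNA per cell cannot be told apart.

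Th, the tyrosine hydroxylase gene, was 8.71, 9.19 and 8.42 in HPYD group 1, 2 and 3, 8.0, 8.35 and 7.29 in the model arrays of the same numbers, and 8.33, 8.01 and 6.99 in those of the control group. All HPYD arrays lay above all model and control arrays, and the model and control arrays overlapped. Group means were 8.77 ± 0.39 (HPYD), 7.88 ± 0.54 (model) and 7.78 ± 0.70 (control) (SD, n = 3 arrays each here and below). The log2 difference was 0.89 (standard error 0.39) for HPYD against model, a fold of 1.85, and relative to control it was 1.0. Without the array labelled HPYD group 3 these were 1.07 and 1.17. The lowest of the 9 arrays was control group 3, and without it the difference from the control group was 0.61.

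Ddc, the aromatic amino acid decarboxylase shared by dopamine and serotonin neurons, was 8.37, 8.35 and 8.52 in the HPYD arrays, 7.42, 8.02 and 7.46 in the model arrays and 7.94, 7.89 and 6.95 in the control arrays. The HPYD arrays were close together, with a range of 0.17, and lay above all others. Ddc averaged 8.41 ± 0.09 (HPYD), 7.63 ± 0.34 (model) and 7.59 ± 0.56 (control). HPYD against model was 0.78 (standard error 0.27) and HPYD against control 0.82 (standard error 0.27), or 0.73 and 0.77 if the array labelled HPYD group 3 is omitted. Without control group 3 the second difference was 0.50.

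Slc18a2, the vesicular monoamine transporter gene (VMAT2), was 7.65, 8.62 and 8.01 in the HPYD arrays, 6.72, 7.66 and 6.29 in the model arrays and 7.27, 7.13 and 5.41 in the control arrays. HPYD group 1 and model group 2 were nearly equal, so the HPYD and model arrays overlapped, whereas all HPYD arrays lay above all control arrays. The difference from the model group was 1.20 (standard error 0.55) and that from the control group 1.49 (standard error 0.55), becoming 1.24 and 1.53 on omitting the array labelled HPYD group 3. Within the control group alone the range was 1.86, and without control group 3 the HPYD difference from it was 0.89.

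Slc6a3, the plasma membrane dopamine transporter (DAT) and the member most particular to midbrain dopamine neurons, reached 9.22 in HPYD group 1 and 9.72 in HPYD group 2, but was 6.70 in the third HPYD array, the one labelled HPYD group 3. It was 7.80, 6.59 and 6.70 in the model arrays and 7.51, 6.81 and 6.31 in the control arrays. HPYD group 1 and 2 stood above all 7 other arrays, and the array labelled HPYD group 3 lay within the range of the model and control arrays. The group mean was 8.55 ± 1.62 in the HPYD group, a value that none of its arrays was near, against 7.03 ± 0.67 in the model group and 6.88 ± 0.60 in the control group. HPYD against model was 1.52 (standard error 0.75) with all arrays and 2.44 (standard error 0.46) when the array labelled HPYD group 3 was omitted, a step of over 1.5 times. HPYD against control was 1.67 and 2.59 in the same order. Without HPYD group 2 the differences were 0.93 and 1.08.

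The 250 bases before the annotated start of Th and of Slc18a2 are shown (RefSeq, GRCm38.p6, 5′ to 3′). Both genes were highest in HPYD group 2 and lowest in control group 3, as were Slc6a3 and Gata3, whose windows are not printed. The Th window is chr7:142899996-142900245 on the minus strand and that of Slc18a2 chr19:59260628-59260877 on the plus strand. Capitals mark matches, on both strands, to the cyclic AMP response element TGACGTCA, the GATA hexamers (AGATAA with its variant AGATAG as well as TGATAA with its variant TGATAG), the Nr4a2 element AAAGGTCA, the ETS element CCGGAAGT and the TATA element TATAAA. None of these motifs overlaps another in the sequences printed.
Th: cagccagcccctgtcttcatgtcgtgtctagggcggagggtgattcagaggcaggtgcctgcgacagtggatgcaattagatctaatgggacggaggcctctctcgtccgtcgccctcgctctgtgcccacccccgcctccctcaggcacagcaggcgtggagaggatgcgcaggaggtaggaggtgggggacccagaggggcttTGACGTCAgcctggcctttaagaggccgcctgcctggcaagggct
Slc18a2: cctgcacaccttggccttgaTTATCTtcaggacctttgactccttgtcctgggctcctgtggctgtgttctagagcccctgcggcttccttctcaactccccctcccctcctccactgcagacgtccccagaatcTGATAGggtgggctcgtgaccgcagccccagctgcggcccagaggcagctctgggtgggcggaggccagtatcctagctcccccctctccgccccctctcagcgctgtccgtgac
Th held the cyclic AMP response element 45 to 38 bases before the start, a motif in 1.55% of 32851 promoter windows of the same length, and none of the others. Slc18a2 held 2 GATA hexamers, which 26.5% of all windows held at least once. The Slc6a3 and Gata3 windows each had 0 matches to any of the 5 motifs. A match is a run of letters, not a measured site.

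**Figure D1:**
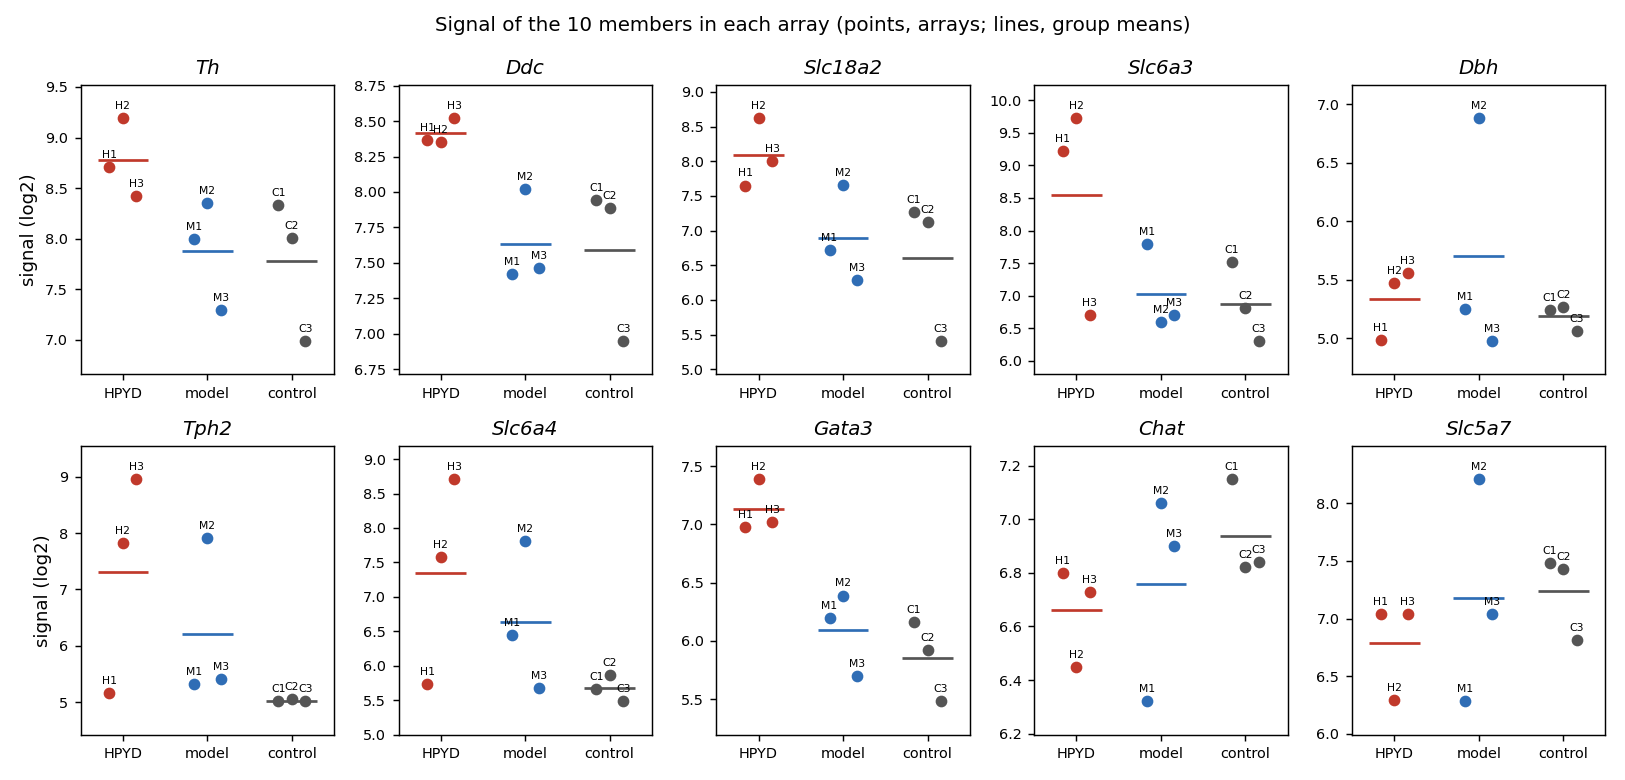
Signal (log2, vertical axis) of the 10 members on each array, with HPYD (H1 to H3), model (M1 to M3) and control (C1 to C3) arrays from left to right; each point is an array and each line a group mean. Th, Ddc and Gata3 separate the HPYD arrays from the others, Slc6a3 is high in H1 and H2 (9.22 and 9.72), and Tph2 and Slc6a4 are high in H2, H3 and M2.

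Tph2, the tryptophan hydroxylase of brain serotonin neurons, was 5.16, 7.83 and 8.96 in HPYD group 1, 2 and 3 and 5.32, 7.92 and 5.41 in the model arrays. In the control arrays it was 5.01, 5.06 and 5.01. HPYD group 2, the array labelled HPYD group 3 and model group 2 stood far above the other 6 arrays. The HPYD and model arrays were each split and overlapped, while the lowest of each lay just above the control arrays, and the lowest and highest arrays differed 15.5-fold. Means were 7.32 ± 1.95 (HPYD), 6.22 ± 1.48 (model) and 5.03 ± 0.03 (control). HPYD against model was 1.10 (standard error 0.99) and fell to 0.28 without the array labelled HPYD group 3, while it was 1.96 without model group 2 and 2.18 without HPYD group 1, the lowest and highest values on leaving out single arrays being 0.28 and 2.18. Model against control was 1.19 (standard error 0.99) and 0.33 without model group 2. HPYD against control was 2.29, or 1.47 on omitting the array labelled HPYD group 3.

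Slc6a4, the serotonin transporter gene, was 5.74, 7.58 and 8.71 in the HPYD arrays, 6.44, 7.81 and 5.67 in the model arrays and 5.66, 5.87 and 5.48 in the control arrays. The same 3 arrays as for Tph2 were the highest, and in the same order. All pairs of groups overlapped. HPYD against model was 0.71 (standard error 0.75), or 0.03 without the array labelled HPYD group 3, 1.29 without model group 2, 1.51 without HPYD group 1 and 0.22 without model group 3. Model against control was 0.97, or 0.38 without model group 2, and HPYD against control was 1.67, or 0.99 without the array labelled HPYD group 3.

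The arrays with high Tph2 and Slc6a4 were only in part those with high Slc6a3. HPYD group 1 had Slc6a3 at 9.22 with Tph2 at 5.16, and the array labelled HPYD group 3 had Slc6a3 at 6.70 with Tph2 at 8.96. HPYD group 2 was high for both, and model group 2 for Tph2 only. Over the 9 arrays the 9967 genes at or above the median level that are not members were ranked by how closely their deviations from the own control mean followed those of Tph2. The nearest were Pcp2, a gene of cerebellar Purkinje cells, and Car8, likewise high in Purkinje cells. Each had a root mean square difference of 0.566 from Tph2 on the log2 scale, followed by Il16 at 0.672. A gene that never deviated would score the member's own root mean square deviation, which was 1.88 for Tph2. In the same rankings for other members, given below, it was 0.794 for Gata3, 0.737 for Th, 0.594 for Dbh and 0.29 for Chat. Relative to the control mean, Pcp2 was at 1.39 and Tph2 at 2.81 in HPYD group 2, at 3.52 and 3.93 in the array labelled HPYD group 3, and at 3.54 and 2.89 in model group 2. Cerebellar markers more than 0.5 over that mean numbered 9 of 9 in the array labelled HPYD group 3, 5 of 9 in HPYD group 2 and 2 of 9 in HPYD group 1, and in the model arrays 4, 9 and 3 of 9. The cerebellar median was 0.56 in HPYD group 2, 0.37 in model group 1 and 0.26 in model group 3. Tph2 was 2.81, 0.29 and 0.38 over its control mean on these arrays, Pcp2 1.39, 0.59 and 0.49, and Car8 1.64, 0.61 and 0.60. The median of 4 glycinergic neuron markers was 0.34, 0.55 and 1.44 in the HPYD arrays and -0.03, 1.69 and -0.25 in the model arrays. In the control arrays it was 0.17, 0.10 and -0.12. These markers differed. Slc6a5 was 6.45, 9.04 and 10.74 in the HPYD arrays, 7.61, 11.24 and 7.03 in the model arrays and at most 6.35 in the control arrays. Glra1 was 11.08 in model group 2, 10.47 in the array labelled HPYD group 3 and 9.02 in HPYD group 2. Slc32a1 stayed between 8.10 and 8.87 and Glra3 between 6.79 and 7.93 on all arrays. The part of cerebellar and glycinergic cells in the serotonin values was not tested.

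**Figure D2:**
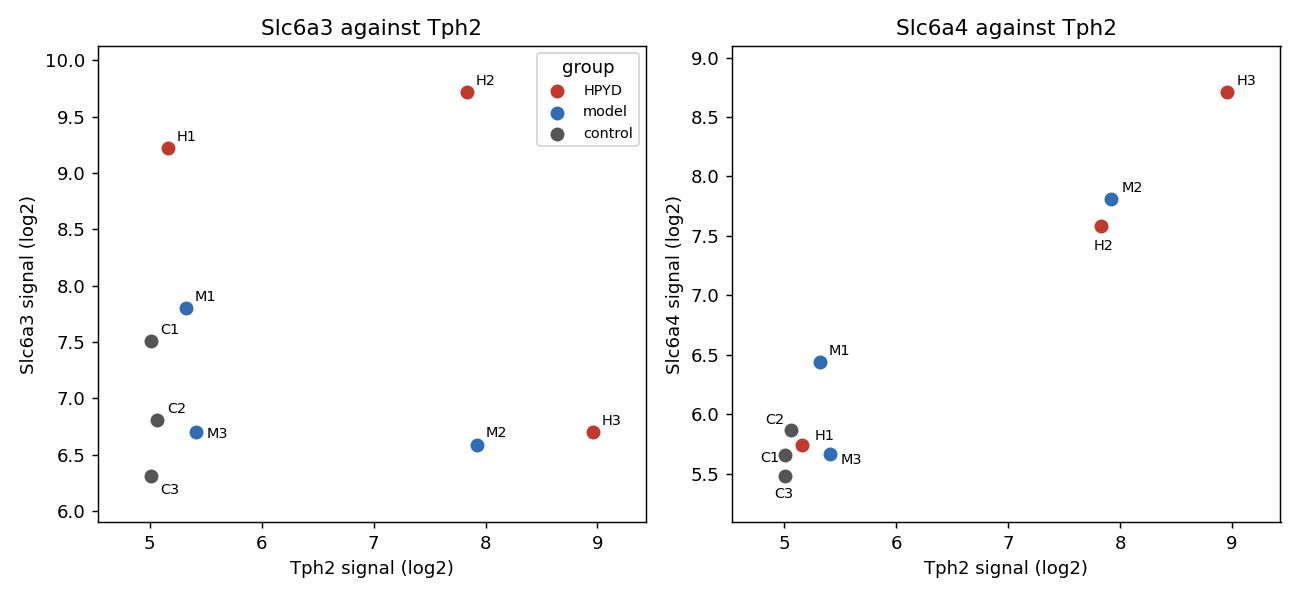
Slc6a3 (left) and Slc6a4 (right) signal against Tph2 signal (all log2) on the 9 arrays, coloured by group. Slc6a4 and Tph2 are high together in H3, M2 and H2, whereas Slc6a3 is high in H1 and H2 (9.22 and 9.72) and not in H3 or M2.

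The windows before the start of Tph2 (chr10:115185023-115185272 on the minus strand) and Slc6a4 (chr11:76998347-76998596 on the plus strand) are shown because these genes peaked on the same 3 arrays, with build, search and capitals as above.
Tph2: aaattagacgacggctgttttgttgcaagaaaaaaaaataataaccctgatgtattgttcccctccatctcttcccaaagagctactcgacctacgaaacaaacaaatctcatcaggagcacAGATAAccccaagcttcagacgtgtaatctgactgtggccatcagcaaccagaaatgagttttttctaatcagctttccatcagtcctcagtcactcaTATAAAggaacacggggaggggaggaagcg
Slc6a4: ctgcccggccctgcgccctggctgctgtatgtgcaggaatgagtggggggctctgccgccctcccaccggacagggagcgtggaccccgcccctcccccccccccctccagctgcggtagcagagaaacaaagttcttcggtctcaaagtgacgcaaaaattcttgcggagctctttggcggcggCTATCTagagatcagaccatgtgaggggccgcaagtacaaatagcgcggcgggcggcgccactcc
Tph2 held a GATA hexamer beginning 128 bases before the start and a TATA element 30 to 25 bases before it. The TATA element was present in 12.4% of all windows. Slc6a4 held 1 GATA hexamer, read on the opposite strand, 65 to 60 bases before the start. With 26.5% of all windows holding a GATA hexamer, its presence in 3 of the 10 members' windows is near the background.

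Gata3, a zinc-finger transcription factor of hindbrain serotonin neurons, of some midbrain inhibitory neurons and of T cells, was 6.98, 7.39 and 7.02 in the HPYD arrays. It was 6.20, 6.39 and 5.70 in the model arrays and 6.16, 5.92 and 5.48 in the control arrays. Every HPYD array, including the array labelled HPYD group 3, lay above every other array, while the model and control arrays overlapped. The means were 7.13 ± 0.22 (HPYD), 6.10 ± 0.36 (model) and 5.85 ± 0.34 (control). HPYD against control was 1.28 (standard error 0.22), a fold of 2.43, and leaving out any single array kept it between 1.09 and 1.43. HPYD against model lay between 0.84 and 1.18 under the same omissions, and without HPYD group 3 the differences from control and model were 1.33 and 1.09. Gata3 did not follow Tph2, since HPYD group 1 had Gata3 at 6.98 and Tph2 at 5.16. The median of 10 T cell markers was -0.03, 0.21 and 0 from the control mean in the HPYD arrays, and 0 of them lay more than 0.5 above it in any HPYD array. The genes nearest to Gata3 in pattern were Irx2, a homeobox gene (root mean square difference 0.342), Ifit3, an interferon-induced gene (0.391), and Plin4, a lipid droplet gene (0.393). Plin4 was also among the nearest to Th (0.370), after the carbonic anhydrase Car13 (0.342) and before the angiotensinogen gene Agt (0.436).

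Dbh, the dopamine β-hydroxylase that makes noradrenaline, was 4.99, 5.47 and 5.56 in the HPYD arrays, 5.25, 6.88 and 4.98 in the model arrays and 5.24, 5.27 and 5.06 in the control arrays. Only model group 2 stood apart, and the other 8 arrays lay between 4.98 and 5.56. Model against control was 0.51 (standard error 0.44) and turned to -0.07 without that array, and HPYD against model, -0.36 with all arrays, became 0.22. HPYD against control was 0.15, or 0.04 if the array labelled HPYD group 3 is omitted and 0.32 without HPYD group 1. Slc6a2, the noradrenaline transporter, was 5.77, 5.77 and 5.90 in the HPYD arrays, 5.50, 6.03 and 5.71 in the model arrays and 5.69, 5.77 and 5.77 in the control arrays, so it was also highest in model group 2, by a smaller step. Phox2a, a transcription factor that noradrenaline neurons require, was 5.68 there and stayed between 5.60 and 5.86 on all arrays. Slc6a2, Phox2a and, outside model group 2, Dbh lay below the medians of the arrays (6.69 to 6.82). At such low levels a steady Phox2a does not show whether noradrenaline neurons varied. The genes nearest to Dbh were Pygm, the muscle glycogen phosphorylase (0.254), Ybx3 (0.257) and Fhl1, a LIM protein of muscle (0.263). Pygm was 9.52 to 9.59 in the control arrays and 0.72 over its control mean in the array labelled HPYD group 3. It is itself among the 21 muscle markers, whose median was 0.08 on that array. Their median was highest in model group 2, at 3.72, and was 2.11 in model group 1, where Dbh was 0.06 over its control mean. The median of 17 Hox genes of hindbrain and spinal cord was also highest in model group 2, at 0.53. The part of muscle, cerebellar or hindbrain tissue in the Dbh value was not tested.

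Chat, the choline acetyltransferase gene, varied least among the members. It was 6.80, 6.45 and 6.73 in the HPYD arrays, 6.32, 7.06 and 6.90 in the model arrays and 7.15, 6.82 and 6.84 in the control arrays, a range of 0.82 over all 9 arrays. All HPYD arrays lay just below all control arrays, by 0.27 in the mean (6.66 ± 0.18 in the HPYD group, 6.93 ± 0.18 in the control group), and the model arrays overlapped both. The difference from control was -0.31 without the array labelled HPYD group 3, and that from the model group -0.10, or -0.13 on the same omission. Without HPYD group 2 these differences were -0.17 and 0.01, without control group 1 the difference from control was -0.17, and without model group 2 the HPYD difference from model was 0.05. Adamts3, a collagen-processing protease, followed Chat most closely (0.110), then Chd2 and Akap9 (both 0.138), where the deviation of Chat itself was only 0.29.

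Slc5a7, the choline transporter that feeds acetylcholine synthesis, was 7.04, 6.29 and 7.04 in the HPYD arrays, 6.28, 8.21 and 7.04 in the model arrays and 7.48, 7.43 and 6.81 in the control arrays. HPYD group 1 and 3 and model group 3 carried exactly the same deposited value. Model group 2 was the highest array and model group 1 the lowest, so the range within the model group, 1.93, was that of the whole data set. Slc18a3, the vesicular acetylcholine transporter, which is not a member, was 7.02, 6.54 and 7.10 in the HPYD arrays, 6.61, 7.87 and 7.02 in the model arrays and 7.18, 7.05 and 6.75 in the control arrays, again highest in model group 2 and lowest in HPYD group 2 and model group 1. The Slc5a7 difference of -0.39 for HPYD against model turned to 0.13 without model group 2, and was -0.51 on omitting the array labelled HPYD group 3. Relative to control it was -0.45, or -0.58 on that omission and -0.20 without HPYD group 2.

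Across the 10 members, control group 3 was the lowest array for 6 (Th, Ddc, Slc18a2, Slc6a3, Slc6a4 and Gata3), and no HPYD array was the lowest for any. HPYD group 2 was the highest array for 4, the array labelled HPYD group 3 for 3, model group 2 for 2 and control group 1 for 1. By group mean, 7 members had HPYD above model above control, Dbh had model above HPYD above control, and Chat and Slc5a7 had control above model above HPYD. For HPYD against model, 3 of 10 members (Th, Ddc and Gata3) had all HPYD arrays above all model arrays, against 2.24% of all genes in that direction. For HPYD against control it was 5 members (Th, Ddc, Slc18a2, Tph2 and Gata3) above, against 4.78% of all genes, and Chat below, against 4.74%. For model against control Tph2 alone lay above (4.83% of all genes) and 0 members below (4.68%), and for HPYD against model 0 members lay below (0.983%). These members were chosen with the values known, so nothing is read from the shares. On omitting the array labelled HPYD group 3, Slc6a3 joined those above in both comparisons, making 4 above model (4.3% of all genes) and 6 above control (7.32%), and Chat stayed below control (8.09%). Over the members the median difference was 0.84 (HPYD against model), 1.14 (HPYD against control) and 0.20 (model against control), where all genes had medians of 0.02, 0.01 and -0.01. Without control group 3 the last 2 medians of the members were 0.75 and -0.18, and without model group 2 the last was -0.09. The median for HPYD against model was 0.51 on omitting the array labelled HPYD group 3. The HPYD comparisons share arrays with each other and with the model comparison.

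Control group 3, the low array for the dopamine genes, also had the lowest median of 7 thalamic (-0.56) and 6 habenular (-0.67) markers, and its 10 hypothalamic markers lay 0.91 below the control mean, compared with 0.40 and 0.33 above it in control group 1 and 2. The hypothalamic median was 0.03, -0.79 and -0.47 in the HPYD arrays and -1.05, -1.06 and -0.71 in the model arrays. Th was 0.93, 1.42 and 0.64 from its control mean in the HPYD arrays. It was 0.23, 0.58 and -0.49 from it in the model arrays and 0.55, 0.23 and -0.78 in the control arrays. The part of the tissue taken in these values was not tested.

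**Figure D3:**
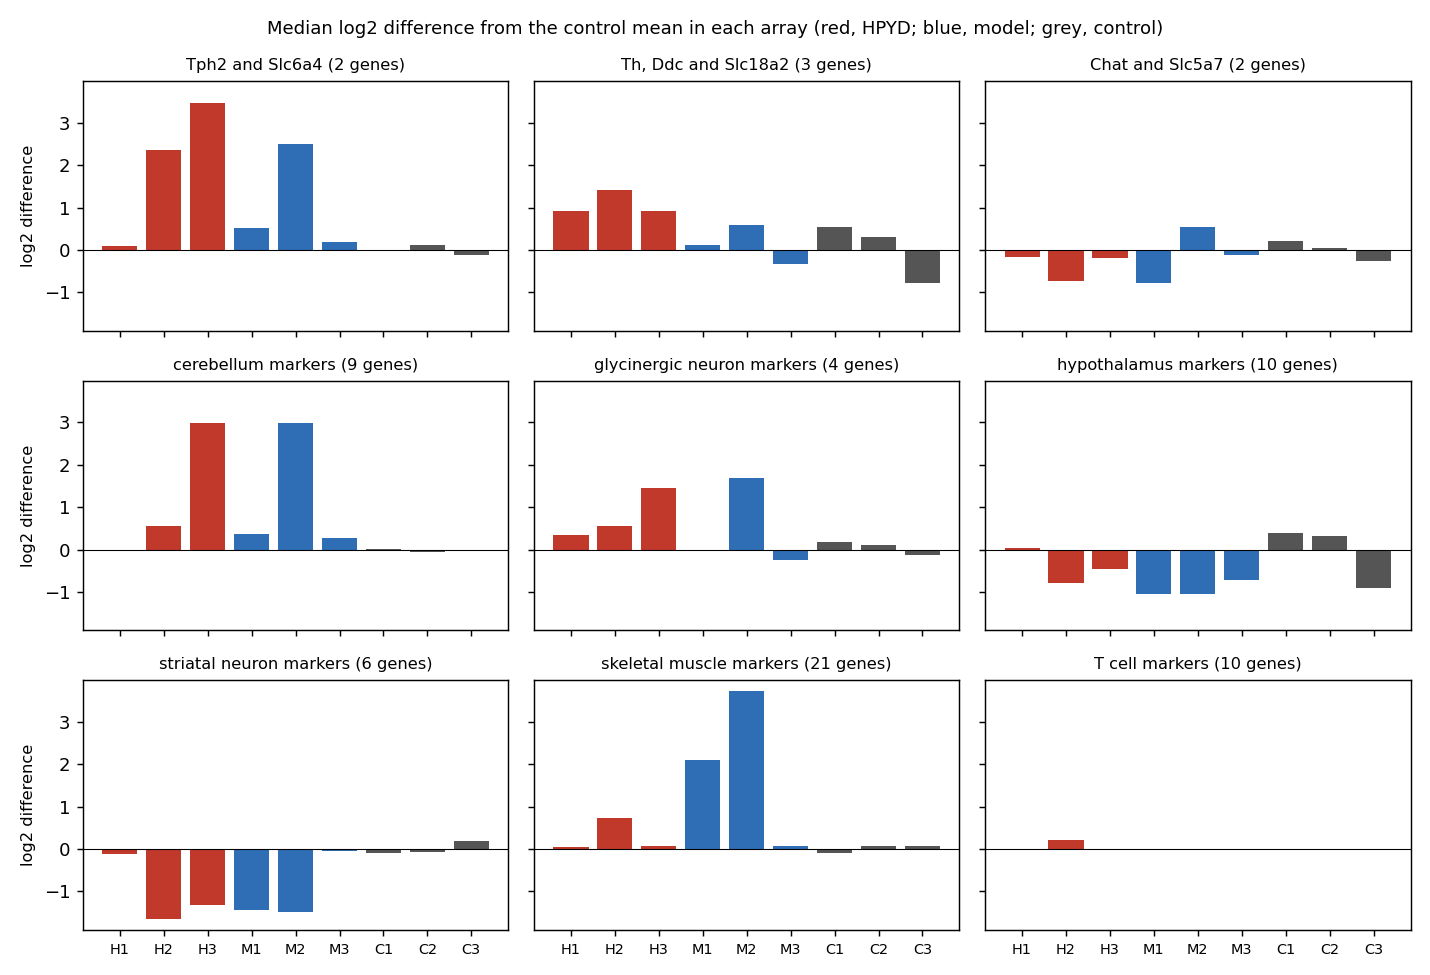
Median over genes of the log2 value minus the control mean (vertical axis) for sets of members (top row) and of marker genes on each array, with HPYD arrays in red, model arrays in blue and control arrays in grey. Tph2 and Slc6a4 are raised in H2, H3 and M2, cerebellar markers mainly in H3 and M2 (2.99 and 2.98), and striatal markers are lower in H2, H3, M1 and M2.

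Other genes of these neurons and pathways, which are not members, were tested with limma on the 9 arrays, p being adjusted by Benjamini and Hochberg's method across the 19938 genes. Of 100 such genes listed, 85 were measured. At an adjusted p under 0.05, 0 of 85 passed for HPYD against model, HPYD against control or model against control; the share of all genes that passed was 0% in each. At an unadjusted p under 0.05, limma gave 7 of 85 for HPYD against model, where 1.97% of all genes had such a p. Of the 7, 6 were higher (1.22% of all genes) and 1 lower (0.752%). It gave 6 related genes relative to control in the HPYD group (3.24% of all genes), 5 higher (2.00%) and 1 lower (1.24%), and 5 for model against control (4.92%), 1 higher (2.87%) and 4 lower (2.05%). The split of all genes at that p moved with the scaling. For model against control 572 were higher and 408 lower as deposited, 465 and 664 with the arrays shifted to a common median, and 564 and 608 after quantile normalization. For HPYD against control it was 399 and 247, 285 and 364, and 362 and 347, and for HPYD against model 243 and 150, 315 and 148, and 258 and 229. The analysis of variance named in the study's methods, with its post hoc test, gave 0 after adjustment in each comparison, and 1, 3 and 1 without adjustment. The median log2 difference over the 85 was 0.11, 0.03 and -0.08 in the same order. With HPYD group 3 left out, limma gave 0 related genes after adjustment, and at an unadjusted p under 0.05 it gave 4 for HPYD against model (1.33% of all genes) and 8 for HPYD against control (2.26%), with medians of 0.15 and 0.02.

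Chrna6, a nicotinic receptor subunit found in midbrain dopamine neurons, had the smallest p among them. It was 6.86, 7.21 and 6.43 in the HPYD arrays, 6.29, 5.67 and 5.40 in the model arrays and 5.61, 5.55 and 5.84 in the control arrays. Every HPYD array lay above every other array, with HPYD group 2 and 1 the highest, as for Slc6a3. The log2 difference from the model group was 1.05 (standard error 0.25, limma adjusted p = 1), and from the control group 1.17 (standard error 0.25, limma adjusted p = 0.86). On omitting the array labelled HPYD group 3 they were 1.25 (limma adjusted p = 1) and 1.37 (limma adjusted p = 0.484). Chrnb3, its partner subunit in these neurons, was 6.83 and 6.87 in HPYD group 1 and 2 and at most 6.33 on the other 7 arrays. Its difference from the model group was 0.67, or 0.87 without HPYD group 3 (limma adjusted p = 1 for both).

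The other 14 measured genes of dopamine neuron identity were uneven. Nr4a2, a nuclear receptor needed for these neurons and also made in cortex and hippocampus, was 9.38 ± 0.49 (HPYD), 9.72 ± 1.04 (model) and 9.72 ± 0.45 (control), and Pitx3, a homeobox gene confined in the brain to midbrain dopamine neurons, was 6.84 ± 0.32, 6.67 ± 0.10 and 6.55 ± 0.22 in the same order. En2, an engrailed gene of the midbrain and cerebellum, was 9.94 in the array labelled HPYD group 3 and 9.70 in model group 2, with values between 5.80 and 6.50 on the other 7 arrays. Aldh1a1, an aldehyde dehydrogenase of ventral dopamine neurons, was 10.12, 10.30 and 10.95 in the HPYD arrays, 9.70, 11.11 and 9.69 in the model arrays and 9.33 to 9.54 in the control group. The difference of 1.02 for HPYD against control did not pass (standard error 0.38, limma adjusted p = 0.86), and was 0.77 if the array labelled HPYD group 3 is omitted. Over the 16 genes the median difference of the HPYD group was 0.28 from model and 0.41 from control, or 0.15 and 0.28 without HPYD group 3.

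Among 6 measured genes of serotonin neurons, Gata2, a relative of Gata3 that acts with it in the hindbrain, was 7.34, 7.69 and 7.84 in the HPYD arrays, 7.34, 7.43 and 7.29 in the model arrays and 7.10, 7.25 and 7.27 in the control arrays. Its difference of 0.42 for HPYD against control (standard error 0.12) had a limma adjusted p of 0.86, and was 0.31 on omitting the array labelled HPYD group 3. Tph1, the tryptophan hydroxylase of the pineal gland and gut, was 5.70 ± 0.16 (HPYD), 5.42 ± 0.14 (model) and 5.43 ± 0.08 (control), and did not show the peaks of Tph2. Fev, the Pet1 transcription factor of serotonin neurons, was not analysed here. Of the 5 measured genes of noradrenaline neurons, 0 had an unadjusted p under 0.05 from limma in any comparison.

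Of the cholinergic genes, Lhx8, a LIM homeobox gene of basal forebrain cholinergic neurons, was 5.96 ± 0.12 (HPYD), 5.90 ± 0.19 (model) and 6.49 ± 0.33 (control). All HPYD and all model arrays lay below all control arrays (log2 differences -0.53 and -0.59, standard error 0.17 each, limma adjusted p = 0.86 and 0.859), and the difference for HPYD was -0.49 without HPYD group 3. Isl1, which basal forebrain and striatal cholinergic neurons express, was 5.68 in model group 2 and 6.90 to 7.65 on the other 8 arrays, so the array with the highest Slc5a7 and Slc18a3 had the lowest Isl1. All model arrays lay below all HPYD and all control arrays. The Isl1 difference was 0.81 for HPYD against model (0.76 without HPYD group 3, limma adjusted p = 1 for both), -0.17 for HPYD against control and -0.98 for model against control (standard error 0.33 each, limma adjusted p = 0.914 and 0.859). Ache, the acetylcholinesterase gene, was 9.56 ± 0.21 (HPYD), 9.29 ± 0.44 (model) and 9.53 ± 0.32 (control).

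**Figure D4:**
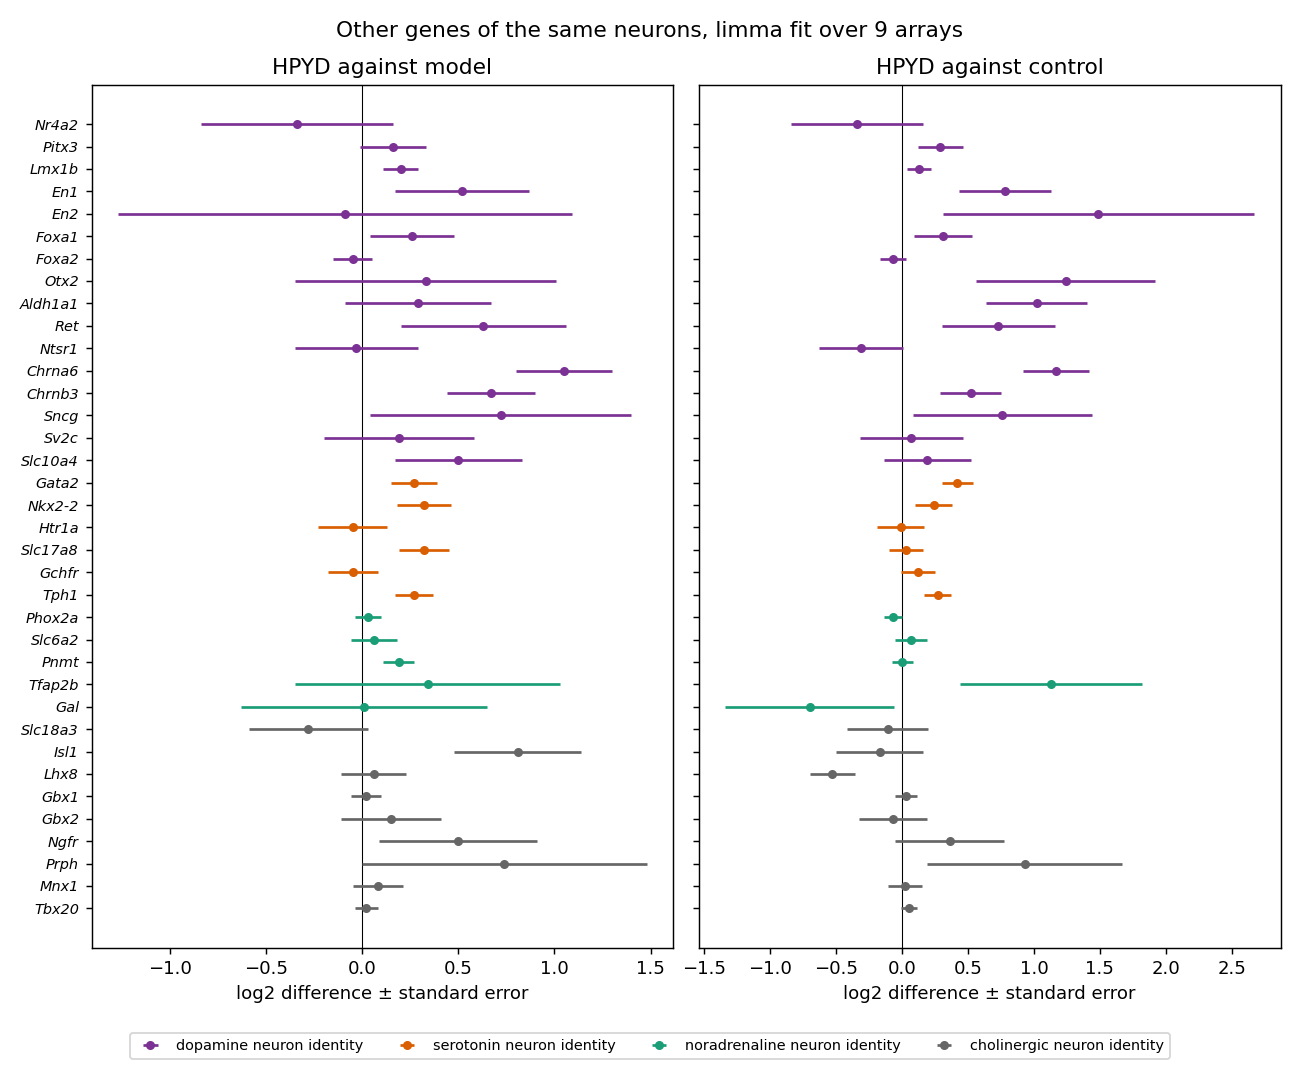
Log2 difference with its standard error (horizontal axis, limma over 9 arrays) of 36 other genes of dopamine, serotonin, noradrenaline and cholinergic neurons, for HPYD against model (left) and HPYD against control (right). Chrna6 stands at 1.05 and 1.17, and the wide bars of En2 (standard error 1.18) go with its high values on 2 arrays.

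Other enzymes and the receptors of these pathways were described in the same way. Gch1, the entry enzyme of synthesis of the cofactor that tyrosine and tryptophan hydroxylases need, was 4.91 ± 0.11 (HPYD), 4.78 ± 0.13 (model) and 4.59 ± 0.08 (control) (0.32 for HPYD against control, standard error 0.09, limma adjusted p = 0.86; 0.26 on omitting the array labelled HPYD group 3). Aldh2, which oxidises the aldehydes that monoamine oxidases form, was 9.20 ± 0.09, 9.31 ± 0.16 and 9.03 ± 0.15 in the same order. Drd1, the D1 dopamine receptor, was 9.13, 7.79 and 7.60 in the HPYD arrays, 7.96, 7.36 and 9.09 in the model arrays and 9.13, 9.26 and 9.38 in the control arrays. Drd2 was low on the same 4 arrays, at 8.44 (HPYD group 2), 9.22 (HPYD group 3), 8.72 (model group 1) and 8.90 (model group 2), and higher on the other 5, at most 10.62. These are the 4 arrays with low striatal markers. HPYD against control was -1.08 for Drd1 and -0.93 for Drd2, and model against control -1.12 and -1.0 (limma adjusted p = 0.86, 0.86, 0.859 and 0.859). Without HPYD group 3 the HPYD differences were -0.79 and -0.85. Slc6a3 was highest on HPYD group 2, where Drd2 was lowest. On HPYD group 1, where Slc6a3 was 9.22, Drd2 was 10.49. Htr1d, a serotonin receptor gene, was 6.95 ± 0.24 (HPYD), 6.68 ± 0.29 (model) and 7.45 ± 0.38 (control), and was the serotonin receptor with the smallest p for model against control (-0.77, standard error 0.22, limma adjusted p = 0.859). Of the remaining genes with the smallest p of their list in a comparison, Bche, the butyrylcholinesterase gene, differed by -0.33 for HPYD against model and Chrm2, a muscarinic receptor gene, by 0.23, both with a limma adjusted p of 1 (-0.42 and 0.21 without HPYD group 3). In the same comparison Chrna3, a nicotinic receptor subunit of the habenula, differed by 0.66 and Pnmt, which makes adrenaline, by 0.19. The D4 dopamine receptor gene Drd4 differed by 0.16 and Spr, sepiapterin reductase of cofactor synthesis, by 0.10 (limma adjusted p = 1 for each of these genes). Without HPYD group 3 the differences of Chrna3, Pnmt, Drd4 and Spr were 0.76, 0.14, 0.19 and 0.08. Chrna3 was 8.10, 7.31 and 7.39 in the HPYD arrays and 7.30, 7.30 and 6.23 in the model arrays. These arrays did not overlap but nearly touched, and control group 2 was the highest array (8.37). For HPYD against control Adra2c, an adrenergic receptor gene, differed by -0.51, or -0.32 without HPYD group 3. Tfap2b, a transcription factor of noradrenaline neurons, differed by 1.13, or 0.57 without that array, and the nicotinic subunit gene Chrna2 by 0.17, or 0.13 (limma adjusted p = 0.86 for the 3 genes with all arrays). Tfap2b was 8.45 in HPYD group 3 and 8.57 in model group 2 and at most 7.06 elsewhere. For model against control Chrm4, a muscarinic receptor gene, differed by -0.70, Slc17a8, a vesicular glutamate transporter of many serotonin neurons, by -0.29, the nicotinic subunit gene Chrna4 by -0.29 and Colq, the collagen tail of acetylcholinesterase, by 0.26 (limma adjusted p = 0.859 each).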

How the data were processed

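Brain RNA of 9 samples was hybridised to GeneChip Mouse Gene 1.0 ST arrays, 3 per group, and grouped by their labels. The authors deposited 1 table of log2 values for 35556 probe sets. MAS5 is the only tool in the submitters' processing notes, with no version; how values were normalized is not given in those sources. The medians of the arrays were between 6.69 and 6.82, and 41.2% of probe sets carried a value shared exactly by 2 or more arrays. The number of columns not used was 0. Probe sets with 1 gene symbol (21789) were kept, those with several (1621) or none (12146) left out, and the highest-mean probe set was taken for each of 19938 genes. The members and gene lists were chosen with earlier results of these data known. The 3 groups were fitted together with limma 3.58.1 in R 4.3.3 (6 residual degrees of freedom), and the fit was tested on simulated data. Named beside the members were the other genes of the same neurons with the smallest p of their list in a comparison. A fixed set of 8 (Slc18a3, Slc6a2, Fev, Gata2, Nr4a2, Pitx3, Isl1 and Ache), the nearest genes in pattern and label checks were also named. Syt1, Nefh, Chrnb3, Phox2a, En2, Drd2, Slc6a5, Glra1, Glra3 and Slc32a1 were named after their values were seen. Alternatives were other scalings, filters, variance models, array weights, probe set rules, thresholds, the methods' analysis of variance, the replicate number as a block, and leaving out arrays. Promoter windows came from RefSeq (GRCm38.p6). The number of arrays limits the precision.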

Additional observations from a re-analysis of the deposited data

How the results depend on the processing

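With 3 arrays per group and no test on the members, their differences rest on single arrays as given beside them. For each member 16 alternatives were run. Leaving out an array of the group not compared, the replicate block and the probe set rules could not change its difference. For HPYD against model, Th, Ddc, Slc18a2, Slc6a3, Tph2, Slc6a4 and Gata3 kept their sign under all 16. Dbh, Chat and Slc5a7 took the opposite sign in 3, 3 and 1 of them. For HPYD against control all 10 kept their sign. For model against control Tph2 kept its sign, Slc6a4 reached 0 at its lowest, and the other 8 took the opposite sign in 1 to 4 alternatives. Leaving out each array in turn gave member medians of 0.51 to 1.15 for HPYD against model, 0.75 to 1.35 for HPYD against control and -0.18 to 0.43 for model against control. It gave 0 genes past the threshold for HPYD against model, 0 to 8 for HPYD against control and 0 to 7 for model against control (8 and 7 without the array labelled HPYD group 3), and 0 related genes in each. With only the arrays compared, 5 genes passed for model against control. Chosen after seeing the data, leaving out model group 2 and HPYD group 3, with raised cerebellar genes, gave 18 genes for HPYD against control and 15 for model against control. Leaving out model group 1, model group 2 and HPYD group 2, with raised muscle genes, turned the member median for model against control to -0.17, where model group 3 alone stood for the model. An unadjusted p under 0.05, also chosen then, gave 393, 646 and 980 genes for HPYD against model, HPYD against control and model against control, and 7, 6 and 5 related genes; the methods' test without adjustment gave 137, 241 and 287 genes and 1, 3 and 1 related genes. The causes were not tested. Same-numbered arrays did not deviate together (correlations of -0.32 to 0.18 over genes), and the replicate number as a block left 0 genes past the threshold. Each number occurs once in each group, so the block could not move the member medians from 0.84, 1.14 and 0.20. The second-highest probe set and the mean of probe sets could not move the members, which have 1 probe set each.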
